A study of Mus musculus with 72 samples.

Results

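The extracellular matrix and fibrosis genes described here are a list of 43 genes, taken as listed and matched by symbol to the Ensembl gene identifiers of the count tables. They are 43 of 53715 gene identifiers, 53620 of which were found in the GENCODE M21 annotation of the GRCm38 build. The question was what these genes did in the heart of mice without Gnb5, the G protein subunit that stabilises the RGS proteins which end signalling through inhibitory G proteins. The heart groups were Gnb5+/+ (wild type), Gnb5+/- (heterozygous) and Gnb5-/- (knockout) atria and ventricles, with 6 male mice of 18 weeks of age in each group. The knockout allele is a germline deletion of exon 3 made on the C57BL/6J background, so every cell of the animal carries the deletion and not only heart cells. Left and right atria were processed together, as were left and right ventricles, and atria and ventricles came from the same mice. Gnb5+/+ and Gnb5-/- brain, as cerebellum, hippocampus and cortex, served for comparison, which gave 36 heart libraries among 72 libraries.

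The extracellular matrix is the protein scaffold between cells. In the heart it is laid down mainly by fibroblasts, which secrete procollagens that are trimmed, assembled into fibrils and cross-linked, while the basement membrane collagens are also made by endothelial and muscle cells. Fibrosis is the excess of this scaffold, and it stiffens the muscle and slows conduction, in the atria in particular.

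The list held 5 fibrillar collagens, 5 basement membrane and network collagens, 4 collagen VI chains, 2 fibril-associated collagens, 6 genes of collagen processing and cross-linking, 6 glycoproteins and elastic fibre genes, 5 thrombospondins, 5 proteoglycans and 5 proteases and protease inhibitors. Reads in genes came to between 29355469 and 46118252 per heart library. The listed genes took 0.531% to 0.871% of them in the atria and 0.256% to 0.380% in the ventricles, against 0.0809% to 0.165% in the brain. Gnb5 itself was lower in the knockouts, by 4.01 on the log2 scale in the atria and 4.26 in the ventricles, and in the heterozygotes, by 0.93 and 0.95. The atrial myosin light chain Myl7 had median normalised counts of 3012, 3366 and 3611 in Gnb5+/+, Gnb5+/- and Gnb5-/- atria, against 21.3, 25.4 and 18.2 in ventricles. The ventricular light chain Myl2 varied widely among atrial libraries, from 1.62 to 917 in Gnb5+/+, 1.89 to 417 in Gnb5+/- and 6.24 to 252 in Gnb5-/-, with medians of 190.4, 60.9 and 55.9. Atrial samples thus differed in their level of a ventricular marker, and the median of this marker was highest in Gnb5+/+. In whole tissue, fewer cells of a type and less RNA per cell cannot be told apart.

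5 of the 43 genes lie on chromosome 9, which also carries Gnb5: Col12a1, Loxl1, Pcolce2, Col6a6 and Adamts15. Of the genes the genotype results turn on, Pcolce2 and Col6a6 had an entry in the RefSeq promoter table of GRCm38.p6. Their 250 bases before the RefSeq start are shown because both genes were higher in knockout tissue. Capitals mark the GC box GGGCGG on either strand, the binding sequence of Sp factors.

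Pcolce2: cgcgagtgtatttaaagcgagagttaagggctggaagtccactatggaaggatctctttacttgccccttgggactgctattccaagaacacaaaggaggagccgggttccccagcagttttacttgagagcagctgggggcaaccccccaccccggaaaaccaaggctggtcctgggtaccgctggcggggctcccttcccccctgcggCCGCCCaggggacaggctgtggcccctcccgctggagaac
Col6a6: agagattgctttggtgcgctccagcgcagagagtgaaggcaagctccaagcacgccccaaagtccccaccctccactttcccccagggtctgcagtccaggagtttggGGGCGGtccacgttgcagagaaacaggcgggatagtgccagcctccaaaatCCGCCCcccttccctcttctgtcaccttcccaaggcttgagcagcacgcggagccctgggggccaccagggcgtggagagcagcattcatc

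The Pcolce2 sequence is chr9:95637378-95637627 on the + strand and the Col6a6 sequence is chr9:105828086-105828335 on the - strand. GENCODE places the start of Pcolce2 at 95637601 and that of Col6a6 at 105828160, so the last part of each window lies within the gene in that annotation. Pcolce2 held 1 GC box, starting 40 bases before the RefSeq start, and Col6a6 held 2, starting 142 and 91 bases before its RefSeq start. GGGCGG was found in 32.7% of 32851 promoter windows of the same length, so its presence does not set these genes apart. The other motifs searched on both strands, which were TATAAA (in 12.4% of windows), CCAAT (33.8%) and TGANTCA (6.75%), were not found in either window. The GC content was 61.2% for Pcolce2 and 62.4% for Col6a6, where the median of all windows was 52.4% and the upper quartile 61.2%.

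Levels are given in 2 scales. A normalised count is the count per 1000000 reads after scaling within a tissue, and it is used between genotypes. A normalised count per kilobase is scaled over all 72 libraries and divided by the exon length of the gene, and it is used between genes and tissues. In Gnb5+/+ atria the highest normalised counts per kilobase were those of Dcn, the collagen-binding proteoglycan decorin (234 ± 41.4, SD, n = 6), Sparc, a collagen-binding glycoprotein (126 ± 26.3), the proteoglycan Bgn (116 ± 14.2), and the metalloproteinase inhibitors Timp2 (90.6 ± 8.58) and Timp3 (68.1 ± 3.72). Gnb5+/+ ventricles were led by Dcn (135 ± 12.7), Sparc (124 ± 22.5), the basement membrane collagens Col4a2 (81.5 ± 10.5) and Col4a1 (71.9 ± 4.84), and Bgn (49.1 ± 7.17). The values of Dcn and Sparc lay within 1 SD of each other in ventricles, as did those of Sparc and Bgn in atria. The heatmap of levels shows these genes as the brightest in the heart.

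**Figure D1:**
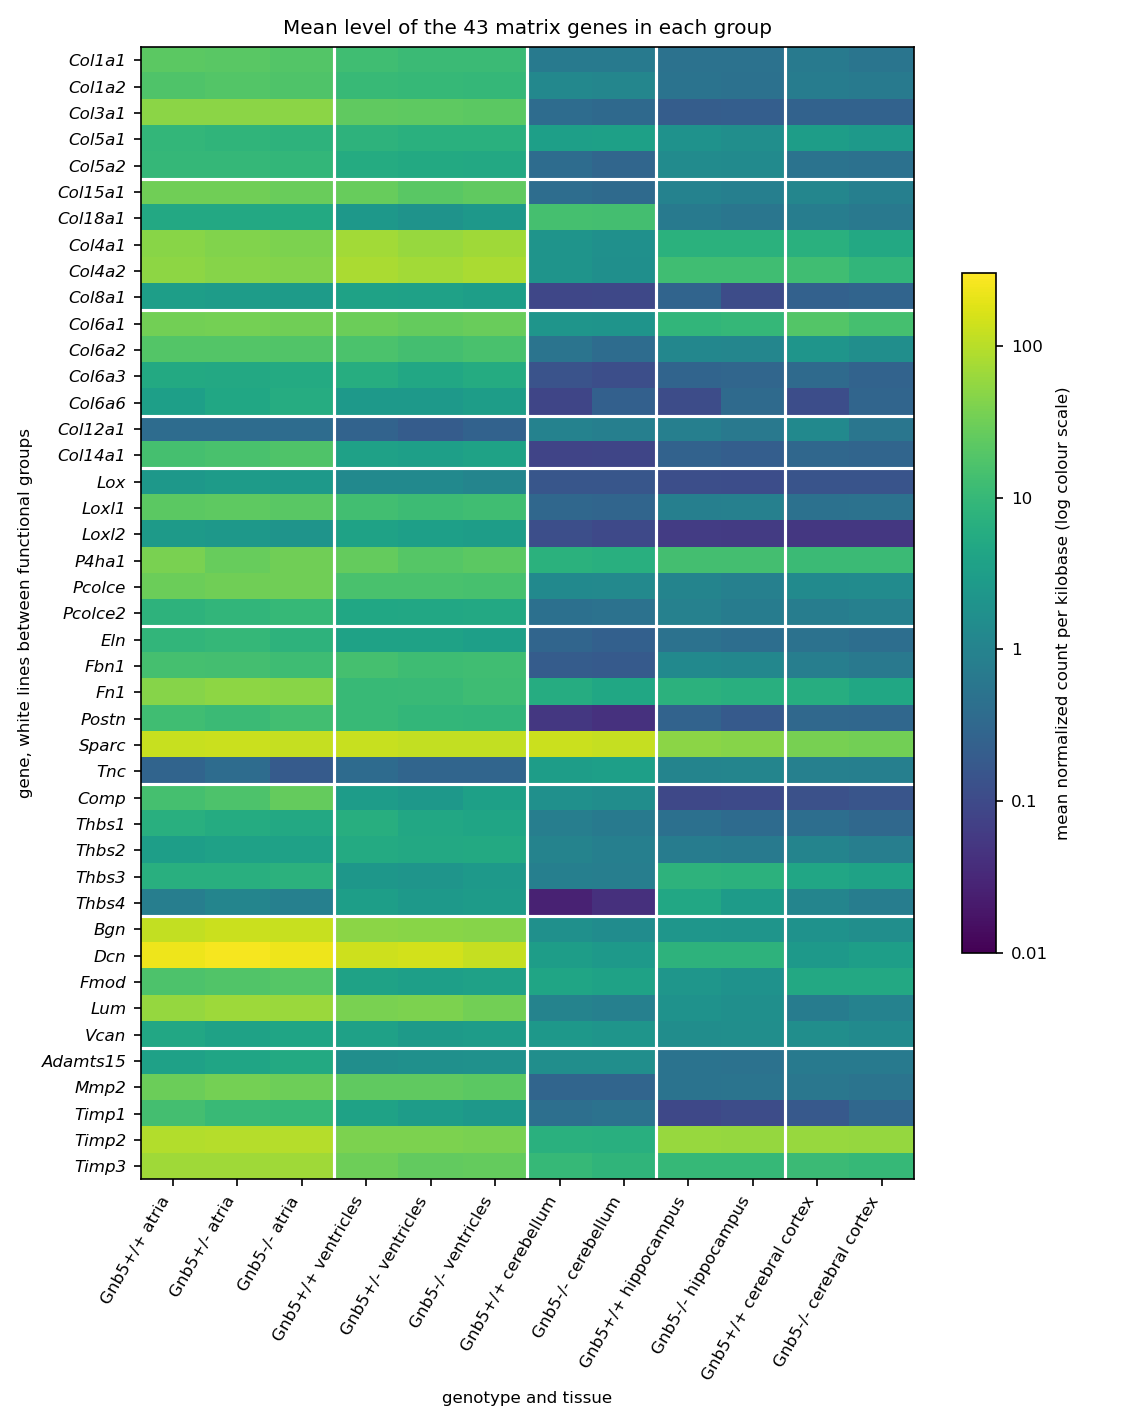
Mean normalised count per kilobase of the 43 genes (rows, ordered by role) in each group (columns), on a log colour scale with a floor of 0.01. Dcn, Sparc and Bgn are bright in atria and ventricles, and most collagens are darker in the 3 brain regions.

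The genes with the lowest levels in Gnb5+/+ atria were Tnc (0.272 ± 0.137 normalised counts per kilobase), the glycoprotein tenascin C, which is known from injured and developing tissue, and Col12a1 (0.379 ± 0.109), a collagen found on the surface of fibrils. Against Gnb5+/+ brain, all 43 genes differed in the edgeR quasi-likelihood test with Benjamini-Hochberg adjustment over all genes, 41 higher in the heart and 2 lower, where 90.9% of 19477 genes differed, 40.7% higher and 50.2% lower. The median log2 difference of the list was 3.66 against -0.22 for all genes. The largest differences were those of Col3a1 (log2 6.97), a fibrillar collagen, Postn (6.04), the matricellular protein periostin, and Mmp2 (5.84), a gelatinase. The 2 genes lower in the heart were Tnc (log2 -2.23), which was at 3.14 ± 0.809 per kilobase in cerebellum, and Col12a1 (log2 -1.74), which was at 1.32 ± 0.143 in cortex.

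Atria held more transcript of most of these genes than ventricles. In Gnb5+/+ mice, 25 of the 43 genes were higher in atria and 5 were higher in ventricles at an adjusted p below 0.05, where 50.2% of 15147 genes were called, 24.5% of them higher in atria and 25.6% higher in ventricles. The median log2 difference of the list, atria minus ventricles, was 0.59, and that of all genes was -0.00. In Gnb5+/- mice, 32 genes were higher and 5 lower in atria (54.8% of genes called, 28.3% higher and 26.5% lower), and in Gnb5-/- mice, 30 were higher and 5 lower (61.1% called, 30.6% higher and 30.5% lower), with list medians of 0.80 and 0.77. 25 genes were called higher in atria in all 3 genotypes, as were 21.3% of all genes, and 4 were called higher in ventricles in all 3, as were 21.4% of all genes.

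The largest atrial excess in Gnb5+/+ was that of Comp, cartilage oligomeric matrix protein, a thrombospondin that binds collagen fibrils. Its normalised count per kilobase was 14.4 ± 4.34 in atria and 2.93 ± 0.699 in ventricles, a log2 difference of 2.28 (edgeR adjusted p = 2.94e-07). Fmod, the fibril-binding proteoglycan fibromodulin, followed with 16.8 ± 3.25 and 3.82 ± 0.9002 (log2 2.13, adjusted p = 3.50e-08 in edgeR). These genes bind collagen fibrils, as does Col14a1, a fibril-associated collagen with 14.6 ± 3.38 and 3.68 ± 0.738 per kilobase (log2 1.98). Fn1, the adhesive glycoprotein fibronectin, stood at 45.2 ± 16.3 in atria and 10.5 ± 1.85 in ventricles (log2 2.10). Timp1, a metalloproteinase inhibitor, stood at 13.8 ± 6.69 and 3.77 ± 2.72 (log2 1.86). In Gnb5+/- and Gnb5-/- mice the log2 differences of the same 5 genes lay between 1.86 and 2.86, so they repeated in 2 further sets of 6 mice.

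By role, all 5 proteases and inhibitors, 5 of 6 processing genes, 4 of 5 fibrillar collagens and 4 of 5 proteoglycans were called higher in Gnb5+/+ atria, with median log2 differences of 1.15, 0.74, 0.77 and 0.79. The 4 genes higher in ventricles in every genotype were Thbs4 and Thbs2, which are thrombospondins, and Col4a1 and Col4a2, which are paired chains of the basement membrane around capillaries and muscle cells. Thbs4 was at 0.829 ± 0.208 per kilobase in Gnb5+/+ atria and 3.28 ± 0.502 in ventricles (log2 -1.98, adjusted p = 1.43e-07 in edgeR). Thbs2 differed less (3.27 ± 0.915 and 5.53 ± 0.710, log2 -0.77). For Col4a2 the log2 difference was -0.66 (52.0 ± 21.7 and 81.5 ± 10.5) and for Col4a1 -0.62 (47.2 ± 20.3 and 71.9 ± 4.84) with edgeR adjusted p of 0.0116 and 0.0152. The thrombospondins thus split, with Comp and Thbs3 (log2 1.47) higher in atria and Thbs1 near 0 (log2 0.05, adjusted p = 0.913 in edgeR).

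5 genes were called in no genotype: Col8a1, Fbn1, Sparc, Thbs1 and Tnc. Col6a3, a collagen VI chain, was called higher in ventricles in Gnb5+/+ and not in the other genotypes, a difference between genotypes that was not tested (log2 -0.28, edgeR adjusted p = 0.0305, and 0.0520 with the mouse as a block). Loxl2, a collagen cross-linking enzyme, had log2 differences of -0.46 (adjusted p = 0.0838), -0.45 (0.0274) and -0.58 (0.000339) in edgeR in the 3 genotypes, and its adjusted p in Gnb5+/+ was 0.00346 with the mouse as a block. With that block, Col6a6 (log2 0.36), Vcan (0.37), Tnc (-0.46) and Col8a1 (-0.39) also passed in Gnb5+/+, with edgeR adjusted p of 0.0244, 0.00870, 0.0353 and 0.0375, as did Tnc in Gnb5-/- (0.0471), Col8a1 in Gnb5+/- (0.0372) and Col6a1 in Gnb5-/- (0.0292).

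Markers of fibroblasts moved with this chamber difference. Of 12 fibroblast markers, 2 of which (Dcn, Lum) are on the list, 11 were called higher in Gnb5+/+ atria, and their summed normalised counts ran from 4552 to 6233 in Gnb5+/+ atria and from 1725 to 2063 in Gnb5+/+ ventricles. All 7 mesothelial markers were also called higher in atria, with median sums of 358 and 24.6. Of 6 endocardial markers 5 were called higher and 1 lower in atria, with median sums of 975 and 255, and of 7 macrophage markers 5 were called higher, with median sums of 574 and 257. Pericyte markers went the other way, with 6 of 7 called lower in atria and sums of 414 to 661 in Gnb5+/+ atria and 1003 to 1237 in Gnb5+/+ ventricles. Each sum was scaled within its own chamber. No marker of these 5 lists was at 0 in these groups. The part of cell makeup in the chamber differences was not tested.

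**Figure D2:**
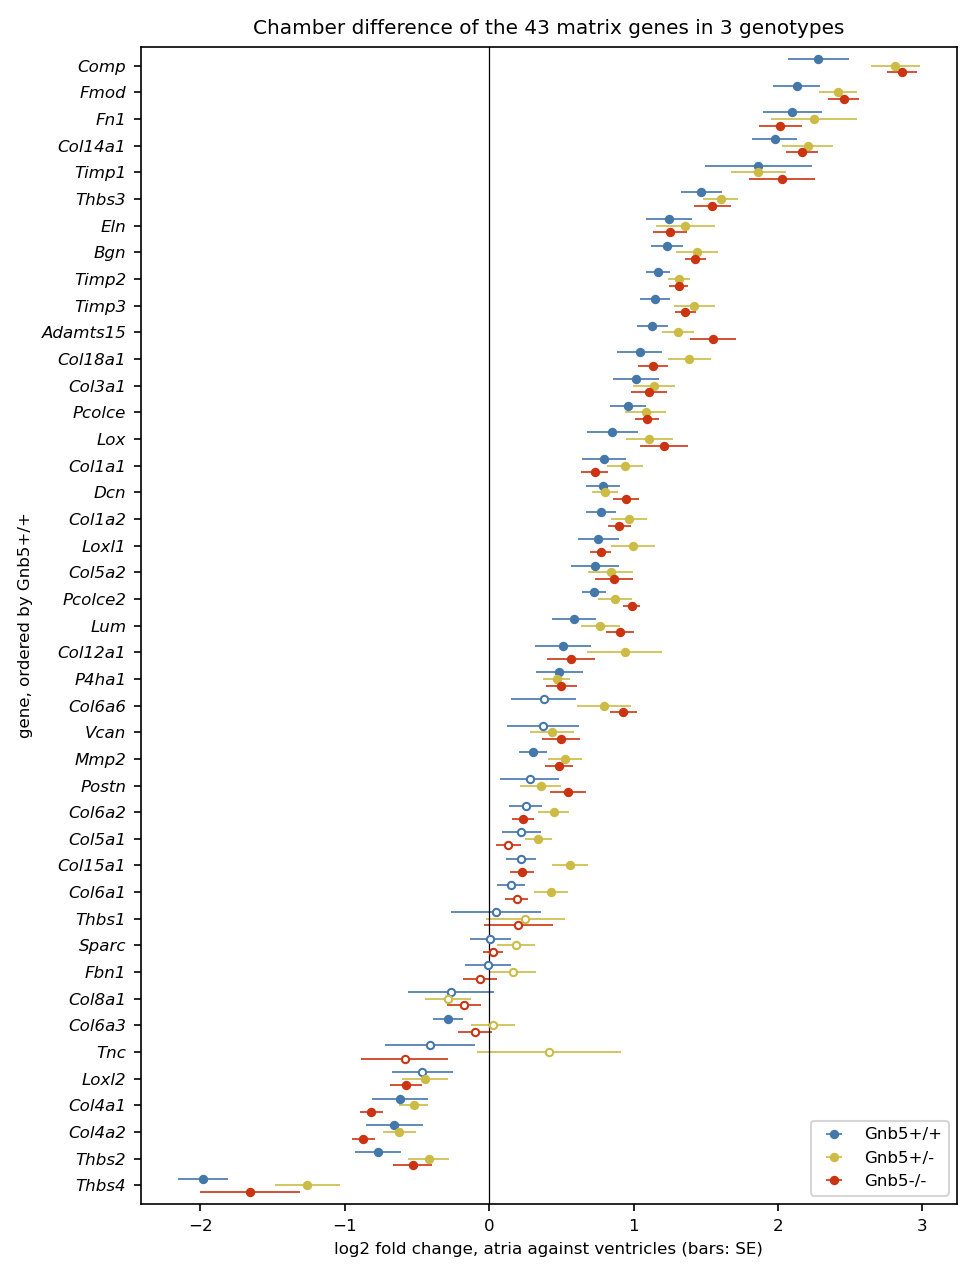
Log2 difference of atria over ventricles for each of the 43 genes in the 3 genotypes, ordered by the value in Gnb5+/+, with bars for the standard error. Filled points passed an adjusted p of 0.05 in edgeR and open points did not. Comp is at the top (2.28 in Gnb5+/+) and Thbs4 at the bottom (-1.98).

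In knockout atria, 3 of the 43 genes were higher than in Gnb5+/+ and none was called lower, where 0.253% of 16181 genes were called, 0.136% higher and 0.117% lower. They were Comp, Pcolce2, which codes for a procollagen C-proteinase enhancer that aids the trimming of procollagen, and Adamts15, a metalloproteinase that cuts versican. The list was chosen with earlier results of these data known, and the paper reports Comp as upregulated in these atria. The share of the list that was called is therefore not an independent result. DESeq2 called a further gene, Col6a6, a chain of the beaded filaments of collagen VI, where it called 0.68% of genes. The remaining 39 genes did not pass in either tool. 7 of the 43 had an unadjusted p below 0.05, as had 8.15% of all genes, and the median log2 difference over the list was 0.01 against 0.00 for all genes, with 22 above 0 and 21 below. Leaving out 1 Gnb5-/- or Gnb5+/+ library moved this median between -0.04 and 0.07. Without Gnb5+/+ replicate 3, the highest wild type in 25 of the 43 genes, 31 were above 0 and 12 below. Without Gnb5-/- replicate 4, 17 were above 0 and 26 below.

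Comp (ENSMUSG00000031849, chr8:70373558-70382066, + strand) ran from 20.9 to 48.9 normalised counts in Gnb5+/+ atria, with a median of 38.9, from 38.1 to 48.1 in Gnb5+/- atria (median 45.9), and from 56.6 to 79.5 in Gnb5-/- atria (median 68.1). Every knockout mouse was above every mouse of the other genotypes. The means were 37.9 ± 11.3, 44.5 ± 3.82 and 68.6 ± 7.99 (SD, n = 6 each). Knockout exceeded wild type by 0.86 on the log2 scale (SE 0.15, 1.81-fold, edgeR adjusted p = 0.0139), and the exact two-sided permutation p was 0.00216, the smallest that 6 against 6 mice can give. The Gnb5+/+ atrial library with the least Comp, replicate 2 at 20.9, also had the most of the ventricular marker Myl2 (917), and without it the difference was 0.73 (adjusted p = 0.00666 in edgeR). The wild type with the most Comp, replicate 4 at 48.9, had the next most Myl2 (568.3), and replicate 3, with the least Myl2 (1.62), had 32.4 of Comp. The edgeR adjusted p rose to 0.0524 without Gnb5+/+ replicate 3 and to 0.0508 without Gnb5+/+ replicate 5. It stayed below 0.05 without any other single Gnb5-/- or Gnb5+/+ library. Single heterozygous libraries were not left out. With all heterozygotes left out of the fit the edgeR adjusted p was 0.0752.

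Pcolce2 (ENSMUSG00000015354, chr9:95637601-95698096, + strand, 20.3 Mb from Gnb5) ran from 30.3 to 34.9 normalised counts in Gnb5+/+ atria (median 31.7), from 33.4 to 43.1 in Gnb5+/- (median 35.4) and from 37.6 to 44.8 in Gnb5-/- (median 41.5). Wild types and knockouts did not overlap, and the heterozygotes overlapped both. The difference of knockout from wild type was 0.37 on the log2 scale (SE 0.0668, 1.29-fold, edgeR adjusted p = 0.0160, exact two-sided permutation p = 0.00216). 2 of the 43 genes, Comp and Pcolce2, did not overlap between Gnb5-/- and Gnb5+/+ atria, where 0.612% of all genes did not. This share too depends on how the list was chosen. The adjusted p of Pcolce2 rose to 0.0601 without Gnb5-/- replicate 4 and to 0.0502 without Gnb5+/+ replicate 4. Pcolce2 overlaps Gm16126, Gm16127 and Itpa-ps2 on the other strand, and the strand setting of the counting is not given in the sources used here.

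Adamts15 (ENSMUSG00000033453, chr9:30899155-30922452, - strand, 44.4 Mb from Gnb5) ran from 30.9 to 39.0 normalised counts in Gnb5+/+ atria (median 32.6), from 36.8 to 42.2 in Gnb5+/- (median 40.4) and from 32.6 to 64.7 in Gnb5-/- (median 52.0). 5 of 6 knockout mice were above all 6 wild types, and replicate 3, at 32.6, lay among them. The highest, replicate 4 at 64.7, was also the highest knockout in 26 of the 43 genes. The difference was 0.56 on the log2 scale (SE 0.12, 1.47-fold, edgeR adjusted p = 0.0438, exact two-sided permutation p = 0.0108). This call was the least firm of the 3. Leaving out a single Gnb5-/- or Gnb5+/+ library moved its edgeR adjusted p between 0.00228 and 0.137. The call was lost without any of Gnb5-/- replicates 1, 4, 5 and 6 or Gnb5+/+ replicates 2 to 6. With the heterozygotes left out of the fit the adjusted p was 0.184.

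Col6a6 (ENSMUSG00000043719, chr9:105687809-105828160, - strand, 30.3 Mb from Gnb5) ran from 17.3 to 43.7 normalised counts in Gnb5+/+ atria (median 26.6), from 28.6 to 46.4 in Gnb5+/- (median 37.7) and from 38.4 to 56.1 in Gnb5-/- (median 49.6). The groups overlapped through Gnb5+/+ replicate 1, which was at 43.7 while the other 5 wild types were between 17.3 and 29.02. The difference of knockout from wild type was 0.82 on the log2 scale (SE 0.18, 1.76-fold), with an adjusted p of 0.0645 in edgeR and 0.00196 in DESeq2 and an exact two-sided permutation p of 0.00649. Without Gnb5+/+ replicate 1 it was 1.01, with an edgeR adjusted p of 0.00263. Col6a6 overlaps Gm38314 on the other strand.

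**Figure D3:**
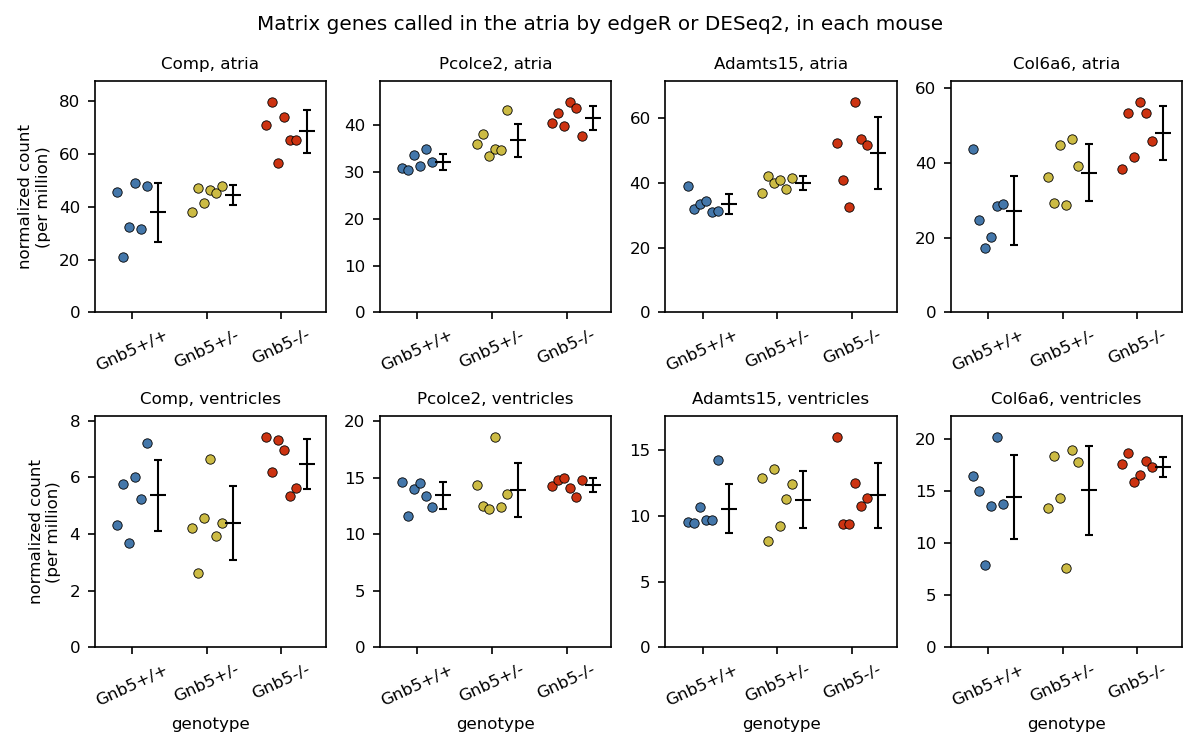
Normalised counts of Comp, Pcolce2, Adamts15 and Col6a6 in each mouse (points) by genotype in atria and ventricles, with the mean ± SD as lines and axes that start at 0. In atria the Gnb5-/- points of Comp (56.6 to 79.5) lie above all Gnb5+/+ points (20.9 to 48.9), and in ventricles the genotypes overlap.

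The other 2 listed genes of chromosome 9 did not follow. Col12a1 (chr9:79598991-79718831, - strand, 4.25 Mb from Gnb5) had normalised counts of 5.14 ± 1.48, 5.24 ± 1.38 and 5.21 ± 1.08 in Gnb5+/+, Gnb5+/- and Gnb5-/- atria, a log2 difference of knockout from wild type of 0.02. Loxl1 (chr9:58287738-58313186, - strand, 16.99 Mb from Gnb5), a lysyl oxidase that cross-links elastin, had 65.8 ± 15.6, 68.6 ± 11.6 and 63.0 ± 2.65 (log2 -0.06, adjusted p = 0.949 in edgeR). Over all genes other than Gnb5, 2.79% of 932 on chromosome 9 and 0.0919% of 15236 elsewhere were called between knockout and wild type atria. Pcolce2 and Adamts15 are on that chromosome and Comp is not.

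The genes that make the bulk of the scaffold showed no difference between knockout and wild type atria that passed the test. Among fibrillar collagens, Col1a1 was at 130 ± 33.8 normalised counts in Gnb5+/+ and 111 ± 16.8 in Gnb5-/- (log2 -0.23, adjusted p = 0.779 in edgeR), and Col3a1 was at 439.7 ± 124 and 428 ± 74.1 (log2 -0.04). The fibril-binding Dcn was at 1218 ± 219 and 1223 ± 176 (log2 0.01), and Fn1 at 470.0 ± 169 and 509.8 ± 136 (log2 0.12). Postn, a marker of activated fibroblasts, was at 97.3 ± 25.8 and 101 ± 21.04 (log2 0.05). The role medians lay between -0.15 for basement membrane and network collagens and 0.15 for thrombospondins. After the called genes, the next in the edgeR ranking of the atria was Timp1 (log2 -0.49, adjusted p = 0.519).

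The summed levels of cell markers in the atria overlapped between genotypes. Fibroblast marker sums ran from 5400 to 6711 in Gnb5-/- and from 4552 to 6233 in Gnb5+/+ atria, and none of the 12 was called. Sums of 10 activated fibroblast markers, 3 of them on the list, ran from 256 to 398 and from 173 to 321, and the 1 of them that was called was Comp. Comp is a gene of cartilage and tendon, and the summed level of 15 markers of these tissues, Comp included, ran from 120.0 to 172 in Gnb5-/- and from 82.5 to 130 in Gnb5+/+. Of the other 14 markers, 11 had mean normalised counts below 1 in both genotypes, among them Tnmd (0.0136 in Gnb5-/- and 0.0148 in Gnb5+/+), Col2a1 (0.0437 and 0.0728) and Matn3, which was at 0 in Gnb5+/+ and Gnb5+/- atria. The remaining 3 were Fmod, also a listed gene (means of 59.1 in Gnb5-/- and 49.5 in Gnb5+/+), Cilp (14.05 and 12.9) and Sox9 (6.71 and 5.85). Of these 14, 7 were tested and none was called, and 9 had a higher mean in Gnb5-/-. Adipocyte markers, none of which was called, had a median log2 difference of 1.48, with overlapping sums of 126 to 329 and 119 to 183. The part of these markers, and of Myl2, in the atrial calls was not tested.

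**Figure D4:**
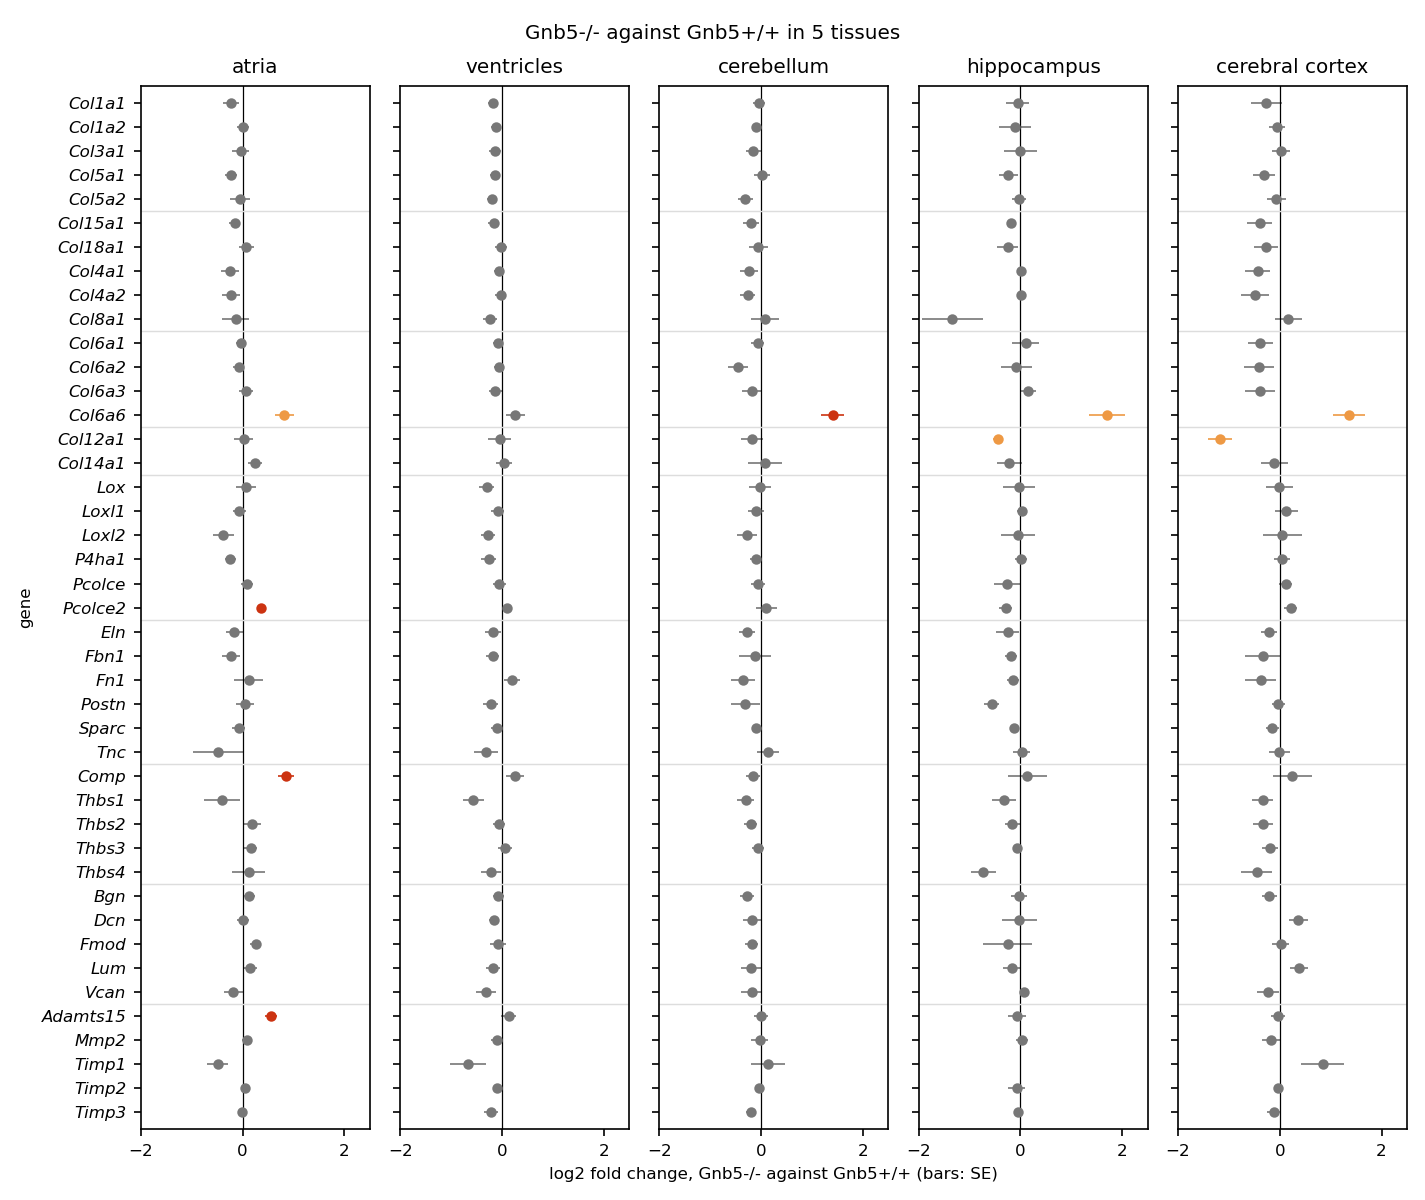
Log2 difference of Gnb5-/- from Gnb5+/+ for the 43 genes in atria, ventricles, cerebellum, hippocampus and cortex, grouped by role, with bars for the standard error. Red points passed an adjusted p of 0.05 in edgeR, orange points only in DESeq2, and grey points in neither. In atria the coloured points are Comp (0.86), Pcolce2 (0.37), Adamts15 (0.56) and Col6a6 (0.82), and in ventricles there are none. In cerebellum Col6a6 is red, and in hippocampus and cortex Col6a6 and Col12a1 are orange.

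Heterozygous atria were compared with the same wild types, so the values of both genotypes share their controls. edgeR and DESeq2 called 0 of the 43 genes between Gnb5+/- and Gnb5+/+ atria, where they called 0.0124% and 0.0433% of genes, and 5 had an unadjusted p below 0.05 in edgeR (7.22% of all genes had). The smallest p was that of P4ha1, a prolyl hydroxylase needed for a stable collagen triple helix, which was at 136 ± 25.3 normalised counts in Gnb5+/+, 101 ± 5.01 in Gnb5+/- and 115 ± 15.97 in Gnb5-/- (log2 -0.43 for the heterozygote, adjusted p = 0.610 in edgeR). Pcolce2 (log2 0.19, adjusted p = 0.630) and Col6a6 (0.46, 0.636) followed in the edgeR test. For Comp, Pcolce2, Adamts15 and Col6a6 the heterozygote mean lay between those of wild type and knockout, with log2 differences from wild type of 0.23, 0.19, 0.25 and 0.46 beside 0.86, 0.37, 0.56 and 0.82 for the knockout.

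Between knockout and heterozygous atria, edgeR called 0 of the 43 genes, where it called 0.0494% of genes, and 3 had an unadjusted p below 0.05 (4.86% of all genes had). DESeq2 called 1, Comp, where it called 0.161% of genes. Comp was higher in the knockouts by 0.63 on the log2 scale, with adjusted p of 0.322 in edgeR and 0.0323 in DESeq2, and the 2 groups did not overlap (0.445% of all genes did not), with an exact two-sided permutation p of 0.00216. Pcolce2 (log2 0.18) and Adamts15 (0.30) did not pass in either tool.

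In the ventricles, no listed gene was called between genotypes. Between Gnb5-/- and Gnb5+/+, edgeR and DESeq2 called 0 of 43, where they called 0.188% and 0.424% of 14866 genes, and 1 had an unadjusted p below 0.05 in edgeR (4.78% of all genes had). That gene was Thbs1, a thrombospondin that can activate latent TGF-beta, with normalised counts of 23.7 ± 6.46 in Gnb5+/+, 18.1 ± 4.01 in Gnb5+/- and 16.1 ± 5.94 in Gnb5-/- (log2 -0.56 for the knockout, adjusted p = 0.777 in edgeR). The next by p were the cross-linking enzymes Loxl2 (12.6 ± 3.37 and 10.4 ± 0.776, log2 -0.27) and Lox (4.00 ± 0.735 and 3.25 ± 0.307, log2 -0.30). 36 of 43 genes were below 0 on the log2 scale, with a median of -0.12 against -0.01 for all genes. Fibroblast markers were also below 0 for 11 of 12 in this comparison, with a median of -0.12, and sums of 1620 to 1994 in Gnb5-/- and 1725 to 2063 in Gnb5+/+. Their part in the list's median was not tested.

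The genes called in atria did not pass in ventricles. Comp was at 5.37 ± 1.25 normalised counts in Gnb5+/+, 4.39 ± 1.30 in Gnb5+/- and 6.47 ± 0.890 in Gnb5-/- ventricles (log2 0.27 for the knockout). Pcolce2 was at 13.4 ± 1.21, 13.9 ± 2.42 and 14.4 ± 0.633 (log2 0.10), and Adamts15 at 10.5 ± 1.85, 11.2 ± 2.15 and 11.6 ± 2.46 (log2 0.13). Col6a6 was at 14.5 ± 4.05, 15.1 ± 4.28 and 17.3 ± 0.977 (log2 0.26). These 4 values kept the sign of the atria with smaller sizes. The difference of the knockout effect between chambers, tested as an interaction in edgeR, was called for 0 of 43 genes, where 0.00622% of 16076 genes were called. DESeq2 also called 0 of 43 (0.0498% of all genes), and 4 had an unadjusted p below 0.05 in edgeR (3.16% of all genes had). Those 4 were Pcolce2 (-0.26 on the log2 scale, ventricles minus atria), Comp (-0.58), Col6a6 (-0.56) and Adamts15 (-0.42), all with an edgeR adjusted p of 1.00, so a difference between chambers was not shown.

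Heterozygous ventricles, compared with the same wild types as the knockouts, had 35 of 43 genes below 0, with a median of -0.17 on the log2 scale against -0.00 for all genes. edgeR and DESeq2 called 0 of 43 (each called 0.0202% of genes), and 6 had an unadjusted p below 0.05 in edgeR (4.84% of all genes had). The smallest p were those of Col15a1, a basement membrane collagen (105 ± 16.6 normalised counts in Gnb5+/+ and 84.4 ± 7.41 in Gnb5+/-, log2 -0.32), Col4a1 (332 ± 22.6 and 279.7 ± 29.9, log2 -0.25) and P4ha1 (67.0 ± 17.6 and 50.9 ± 6.52, log2 -0.40), each with an adjusted p of 0.961 in edgeR. Between Gnb5-/- and Gnb5+/- ventricles, edgeR and DESeq2 also called 0 of 43 (they called 0.0874% and 0.464% of genes), and 4 had an unadjusted p below 0.05 in edgeR (8.79% of all genes had). The smallest were those of Dcn, which was at 534 ± 58.2 in Gnb5+/- and 435 ± 23.1 in Gnb5-/- (log2 -0.30, adjusted p = 0.311 in edgeR), Comp (log2 0.56, 0.394) and Col18a1, a basement membrane collagen (8.57 ± 0.975 and 10.4 ± 1.54, log2 0.28, 0.505).

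In the brain, where these genes took few reads, Col6a6 rose in the cerebellum. It ran from 0.674 to 1.86 normalised counts in Gnb5+/+ cerebellum (median 1.05) and from 2.37 to 3.76 in Gnb5-/- (median 3.11), without overlap (1.1% of all genes did not overlap). The difference was 1.40 on the log2 scale (SE 0.22, 2.64-fold, edgeR adjusted p = 0.0366, exact two-sided permutation p = 0.00216). Over all genes other than Gnb5, 1.19% of 1008 on chromosome 9 and 0.00621% of 16114 elsewhere were called in cerebellum. Col6a6, which is on chromosome 9, was the 1 gene called of the 42 tested in cerebellum, where 0.0817% of genes were called. Its call held without Gnb5+/+ replicate 1 (log2 1.59, adjusted p = 0.00279 in edgeR) or Gnb5-/- replicate 2, and was lost without any other single library, with adjusted p of 0.0601 to 0.145.

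Hippocampus and cortex showed the same direction for Col6a6 with values that passed in DESeq2 and not in edgeR. In hippocampus it ran from 0.645 to 3.52 in Gnb5+/+ (median 0.865) and from 3.65 to 5.28 in Gnb5-/- (median 4.04), again without overlap (0.648% of all genes), a log2 difference of 1.70 (SE 0.35) with adjusted p of 0.0947 in edgeR and 0.000179 in DESeq2. In cortex it ran from 1.01 to 2.78 (median 1.12) and from 1.61 to 5.35 (median 3.82), a log2 difference of 1.35 (SE 0.32) with adjusted p of 0.474 and 0.0254. The highest wild-type value in each of the 3 regions, and in atria, was that of replicate 1, which is 1 mouse: 1.86, 3.52 and 2.78 in the brain, where the other 5 wild types lay between 0.645 and 1.34. In ventricles that mouse was at 16.5, within the 7.87 to 20.2 of the others. Without it, Col6a6 differed by 2.32 in hippocampus (adjusted p = 2.40e-06) and by 1.66 in cortex (0.0447) in edgeR. The mouse is labelled wild type and its Gnb5 lay within or above the range of the other wild types in all 5 tissues, and its genotype at this region of chromosome 9 was not tested.

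Col12a1 went the other way in the brain. In cortex it ran from 21.5 to 28.9 normalised counts in Gnb5+/+ (median 27.5) and from 5.36 to 16.3 in Gnb5-/- (median 13.1), without overlap (0.601% of all genes), a log2 difference of -1.18 (SE 0.24) with adjusted p of 0.260 in edgeR and 0.00134 in DESeq2. Without Gnb5-/- replicate 3, a library with the lowest value of its group in 26 of the 43 genes, the difference was -1.03 with an edgeR adjusted p of 0.0215. Replicates 3 and 5 of Gnb5-/- cortex, which had the lowest Col12a1 (5.36 and 7.56, the other knockouts 11.9 to 16.3), also had fewer reads outside genes (6.86% and 8.32%) than the other cortex libraries (13.1% to 15.6%). With both left out, an alternative chosen after seeing the data, Col12a1 still fell by 0.88 on the log2 scale (edgeR adjusted p = 0.00122) and Col6a6 rose by 1.61 (0.0196). In hippocampus Col12a1 was at 17.1 ± 2.07 and 12.6 ± 1.70 (log2 -0.44, adjusted p of 0.118 in edgeR and 0.00432 in DESeq2), and in cerebellum at 20.7 ± 2.62 and 18.1 ± 5.45 (log2 -0.19, and -0.02 without Gnb5-/- replicate 2). Cortex and hippocampus thus had 0 genes called in edgeR, with 2 of 43 and 7 of 42 at an unadjusted p below 0.05, where 7.39% and 7.7% of all genes were. DESeq2 called 2 in each region, Col6a6 and Col12a1. edgeR called 0.0557% and 0.165% of all genes in cortex and hippocampus, and DESeq2 0.139% and 0.591%. Both Col6a6 and Col12a1 are on chromosome 9. Of its genes other than Gnb5, edgeR called 0.667% in cortex and 2.31% in hippocampus, against 0.0118% and 0.0242% of genes elsewhere. The third by p were Lum in cortex (log2 0.37, adjusted p = 0.474) and Postn in hippocampus (log2 -0.57, 0.326), both in edgeR.

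**Figure D5:**
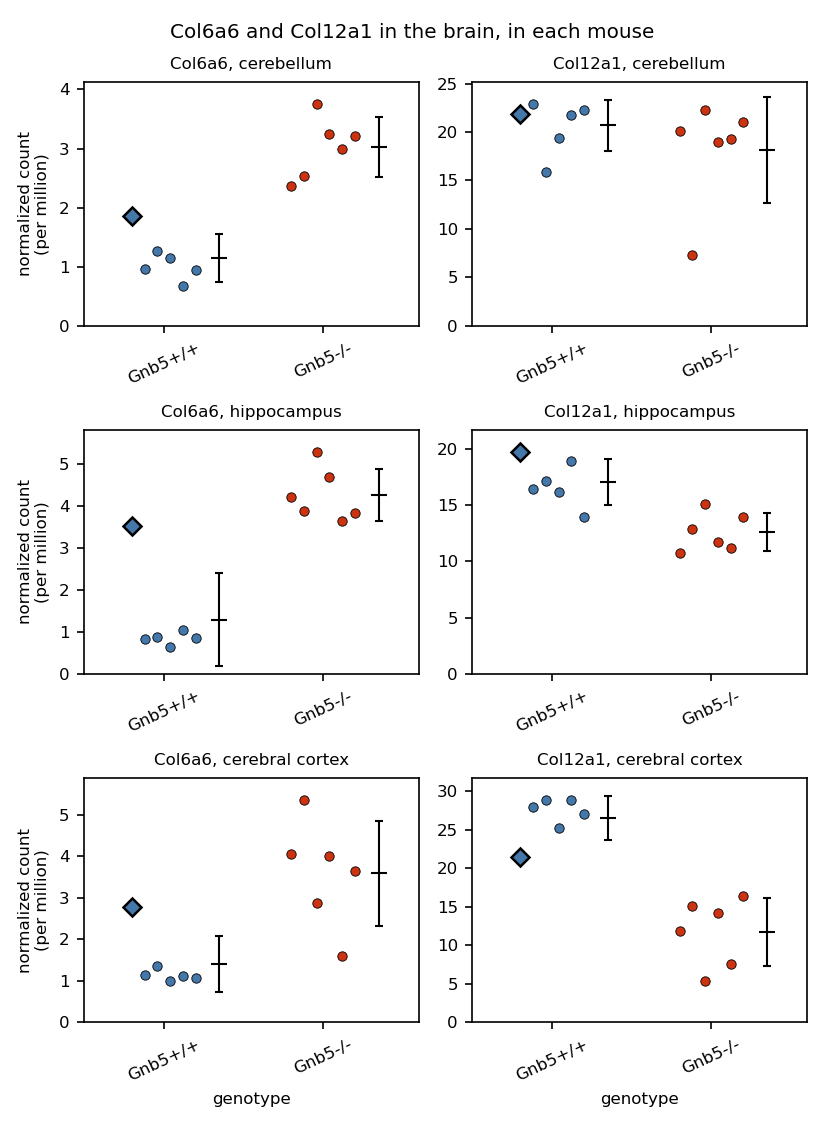
Normalised counts of Col6a6 and Col12a1 in each mouse (points) in cerebellum, hippocampus and cortex by genotype, with mean ± SD as lines and a diamond for Gnb5+/+ replicate 1. Col6a6 is higher in Gnb5-/- in all 3 regions, and the diamond is the highest Gnb5+/+ point in each. Col12a1 is lower in Gnb5-/- cortex (5.36 to 16.3) than in Gnb5+/+ cortex (21.5 to 28.9).

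Choroid plexus markers differed between brain libraries. Their summed normalised counts were 912 in Gnb5-/- cerebellum replicate 2 and at most 20.9 in the other cerebellar libraries, and ran from 34.05 to 1549 in Gnb5+/+ and from 34.9 to 287 in Gnb5-/- hippocampus. In cortex they ran from 16.5 to 296 and from 15.4 to 726. Gnb5-/- cerebellum replicate 2 had 7.28 of Col12a1, below the 19.0 to 22.2 of the other knockouts, and 8.02% of its reads outside genes (the other cerebellar libraries 14.02% to 16.97%). Col12a1 was also read in the libraries with the highest sums of cortex and hippocampus. Gnb5-/- cortex replicate 6, with the 726, had the most Col12a1 of the knockouts (16.3), and Gnb5+/+ hippocampus replicate 5, with the 1549, had 18.9, in the upper part of its group. The part of these markers in the brain results was not tested.

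The other genes of the matrix and of TGF-beta signalling, the pathway that drives fibroblasts to make matrix, gave few calls in the heart. Of 19 TGF-beta genes, 1 of which is on the list, edgeR and DESeq2 called 0 between Gnb5-/- and Gnb5+/+ in atria and in ventricles, with 1 and 2 at an unadjusted p below 0.05 and medians of 0.06 and -0.03. Of all genes, edgeR called 0.253% in atria and 0.188% in ventricles and DESeq2 0.68% and 0.424%, with 8.15% and 4.78% at an unadjusted p below 0.05 in edgeR. Of 11 further collagens tested in atria, edgeR called 1, Col23a1, a transmembrane collagen (log2 0.62, adjusted p = 0.0325). edgeR called 0 of 19 collagen processing genes (4 at an unadjusted p below 0.05), 0 of 23 matrix degradation genes (4), 0 of 20 proteoglycans and matricellular genes (3), 0 of 14 elastic fibre genes (0) and 0 of 14 basement membrane genes (1) in that comparison. DESeq2 called 1 of the collagen processing genes and 0 of the other 4 lists. That gene was Crtap, part of a complex that modifies prolines of collagen (log2 0.36, adjusted p of 0.0618 in edgeR and 0.00647 in DESeq2). Crtap lies on chromosome 9, 39.0 Mb from Gnb5.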

How the data were processed

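RNA-seq libraries (TruSeq Stranded Total RNA, 350 ng input, single-end reads) were made from 72 tissue samples. The authors deposited raw counts of reads per Ensembl gene, 1 file per library. Their processing notes name cutadapt 1.8, STAR 2.5.3a and HTSeq 0.9.1 with the GRCm38 build, and reads outside genes (2.85% to 16.97% of a library) and ambiguous reads (0.830% to 1.50%) were left out here. Counts were fitted per tissue with genotype as the factor in edgeR 4.0.16 (TMM scaling, filterByExpr with a minimum count of 10, quasi-likelihood test) under R 4.3.3, with Benjamini-Hochberg adjustment over all genes and calls at an adjusted p below 0.05. Chambers were compared within each genotype, and heart with brain in Gnb5+/+. SE is the log2 difference divided by the square root of F. Exact permutation tests used log2 CPM (counts per 1000000 reads) with a prior count of 2. DESeq2 1.42.0 and sva 3.50.0 gave alternatives. Choroid plexus and other marker lists were described by counts alone. filterByExpr removed Thbs4 in cerebellum and Timp1 in hippocampus, and kept all 43 genes in the heart. No 2 libraries held the same counts. Atria and ventricles of 1 genotype came from the same mice, and their deviations from the group means correlated above 0.1 in 5, 5 and 6 of 6 pairs in Gnb5+/+, Gnb5+/- and Gnb5-/-. The members and lists were chosen with earlier results of these data known. Genes were named where edgeR or DESeq2 called them in a genotype comparison, or as the 3 smallest p in a comparison without calls. They were also named as the 5 largest chamber differences each way or the 5 highest levels in Gnb5+/+ atria and ventricles. Genes on chromosome 9 were named as well. Others, such as Col1a1 and Mmp2, were named as examples. Replicates are separate mice. The tests were also run on simulated counts with known changes.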

Additional observations from a re-analysis of the deposited data

Results flagged for a closer look

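In 8 of 72 groups of 6 mice, tested for the 5 genes called by edgeR or DESeq2 in a genotype comparison and for the summed level of the list, the highest or lowest mouse was far from the others, and chance flags about 1 in 20 groups. 4 of the 8 were in brain libraries of Gnb5+/+ replicate 1, which is 1 mouse: Col6a6 at 3.52 normalised counts in hippocampus, where the other 5 ran from 0.645 to 1.05, Col6a6 at 2.78 in cortex, where they ran from 1.01 to 1.34, Adamts15 at 10.3 in hippocampus and Comp at 0.730 in hippocampus. The mouse was the highest wild type each time. Its hippocampus library was the highest wild type in 25 of the 43 listed genes, and its cortex library in 16. The summed level of the list in that hippocampus library was 1623, the highest of its group, where the others ran from 1337 to 1557. 2 were in the Gnb5-/- cerebellum library of replicate 2, with 7.28 normalised counts of Col12a1, the lowest, and 5.57 of Pcolce2, the highest. That library also had the highest choroid plexus marker sum of the cerebellum, 912, and 8.02% of its reads outside genes, against 14.02% to 16.97% in the other cerebellar libraries, and the part of these in its values was not tested. The remaining 2 were in ventricles, Adamts15 at 14.2 in Gnb5+/+ replicate 6 and Pcolce2 at 18.6 in Gnb5+/- replicate 4, a library with 2.85% of reads outside genes where the other Gnb5+/- ventricles had 4.61% to 4.81%.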

How the results depend on the processing

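No log2 difference of a called gene reversed under any alternative run. 79 of 91 counts of called genes from alternatives other than leaving out 1 library, and 91 of 108 from leaving out 1 library, stayed within 1.5 times the value reported. In most of the counts that stayed, both values were 0. For single genes called by either tool, leaving out 1 library lost 23 edgeR calls, gained 4 and left 93 as they were. Col6a6 in cerebellum passed in 2 of 12 such runs, and in atria Adamts15 passed in 3 and Comp and Pcolce2 in 10 each. Only libraries of the genotypes being compared were left out singly. Between Gnb5-/- and Gnb5+/+ atria, 1 gene was called with the replicate number as a block (Comp) and 1 with wild types and knockouts alone in the fit (Pcolce2), against 3, and leaving out 1 library gave 1 to 4. Under that replicate block Pcolce2 had an edgeR adjusted p of 0.0744 and Adamts15 of 0.0989. Mice with the same replicate number in different genotypes are separate mice, and their deviations correlated above 0.1 in at most 2 of 6 atrial pairs. Whether they shared anything beyond the replicate number was not tested. Between Gnb5-/- and Gnb5+/- atria, DESeq2 and the fit of those 2 genotypes alone each called 1, Comp, against 0. Between Gnb5-/- and Gnb5+/- ventricles 1 was called with 1 surrogate variable, Comp, against 0. Between Gnb5-/- and Gnb5+/+ cerebellum 0 were called with the replicate block against 1, and leaving out 1 library gave 0 to 1. In the same comparison in hippocampus DESeq2 called 2, and no filter on low counts and 1 surrogate variable called 1 each, against 0; in cortex DESeq2 called 2, 1 surrogate variable called 1 and leaving out Gnb5-/- replicates 3 and 5, which was added after seeing the data, called 2, against 0, and leaving out 1 library gave 0 to 1 in both regions. The cause of these changes was not tested. The list's median between Gnb5-/- and Gnb5+/+ turned from 0.01 to -0.02 in atria with 1 surrogate variable and to -0.01 with the replicate block, and from -0.07 to 0.01 in hippocampus and -0.11 to 0.01 in cortex with 1 surrogate variable. Chamber counts ran from 29 to 34 in Gnb5+/+, 37 to 38 in Gnb5+/- and 35 to 37 in Gnb5-/- over the alternatives, with 34, 38 and 37 for the mouse as a block. Without the filter on low counts, the median of all genes between heart and brain shifted by -0.13 on the log2 scale. In the brain, Col6a6 was at about 1 normalised count in most wild types. Its knockout medians were 3.11, 4.04 and 3.82 in cerebellum, hippocampus and cortex. Its values there rest on few reads, in wild types in particular.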

Other observations

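Some matrix genes that are not on the list passed in DESeq2 and not in edgeR. Col6a5, a collagen VI chain next to Col6a6 on chromosome 9 and 30.5 Mb from Gnb5, ran from 10.4 to 22.3 normalised counts in Gnb5-/- atria and from 0.575 to 6.27 in Gnb5+/+ atria (log2 2.28, adjusted p of 0.166 in edgeR and 0.0445 in DESeq2). In ventricles it ran from 1.18 to 1.90 and from 0.0899 to 0.892 (log2 1.98, adjusted p of 0.0589 in edgeR and 0.000759 in DESeq2). In hippocampus its adjusted p was 0.234 in edgeR and 0.0105 in DESeq2 (log2 1.02). Col6a4, a neighbouring chain at 30.6 Mb, went the other way, with a log2 difference of -2.55 in hippocampus and -1.92 in cortex and DESeq2 adjusted p of 0.00714 and 0.00341. In hippocampus it ran from 0.469 to 1.56 normalised counts in Gnb5-/- and from 0.465 to 11.3 in Gnb5+/+, and in cortex from 1.58 to 2.20 and from 1.55 to 11.5, so 1 or more wild types of each region reached the knockout level.

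Adamts7, a metalloproteinase that cuts Comp protein and lies on chromosome 9 at 14.8 Mb from Gnb5, ran from 1.43 to 2.48 normalised counts in Gnb5-/- hippocampus and from 0.509 to 1.53 in Gnb5+/+ (log2 1.27, adjusted p of 0.0875 in edgeR and 0.000545 in DESeq2). Adamts2, a procollagen N-proteinase, ran from 11.1 to 19.3 in Gnb5-/- cerebellum and from 22.0 to 25.4 in Gnb5+/+ (log2 -0.54, adjusted p of 0.238 in edgeR and 0.00597 in DESeq2). Npr3, a natriuretic peptide clearance receptor used here as an endocardial marker, rose in Gnb5-/- atria, from 246 to 332 in Gnb5+/+ and from 309 to 398 in Gnb5-/- (log2 0.39, adjusted p = 0.0436 in edgeR).

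Gnb5+/+ replicate 1, the mouse with high Col6a6, was compared with the other wild types at Rpl29, a ribosomal protein gene 0.601 Mb from Col6a6 that was chosen after its values were seen. In atria this mouse had 4.58 normalised counts of Rpl29, the other 5 wild types 8.54 to 10.1 and the knockouts 0.474 to 1.23. It was the lowest of 6 wild types in all 5 tissues, at 4.67 in ventricles (others 6.72 to 8.39), 4.40 in cerebellum (6.25 to 7.55), 5.09 in hippocampus (7.65 to 8.29) and 7.13 in cortex (9.10 to 11.4). The mouse is labelled wild type, and its Gnb5 in atria was 26.9, within the 26.6 to 32.9 of the other wild types. Its genotype at this region of chromosome 9 was not tested.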
